A study of Mus musculus with 11 samples.

Results

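Oxidative phosphorylation (OXPHOS) genes were described in RNA-Seq counts of mouse bone marrow hematopoietic stem cells (HSC). The members were the protein-coding genes of the mitochondrial chromosome and the nuclear genes named Nduf, Uqcr, Atp5 or Cox4 to Cox8, together with Sdha, Sdhb, Sdhc, Sdhd and Cycs. This rule found 106 gene IDs of the 37991 in the table, 13 of them mitochondrial and 93 nuclear. The name rule also took in Cox4nb, Atp5s, Atp5sl, Atp5l-ps1 and Cox7a2l, which are not core subunits of a complex. It took in the complex I assembly factors Ndufaf1, Ndufaf2, Ndufaf3 and Ndufaf4 as well. Ndufb8 was listed under a second, short ID with 0 counts.

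The series held 11 libraries of 3 genotypes, all from C57BL/6 mice 8 weeks old: 4 control, 4 NA10hd and 3 NV. NA10hd mice (labelled NA) carried a NUP98-HOXA10HD fusion with a Tdtomato reporter at the ROSA26 locus, and NV mice (labelled NrasG12D) carried a conditional NrasG12D allele. In both, Vav-Cre, which acts in blood cells, removed a stop cassette. Controls were labelled wild type, and the study's methods call them littermates. Each library came from amplified cDNA of 1000 sorted Lin-CD48-c-Kit+Sca1+CD135-CD150+ cells. The study calls the libraries biological replicates, and the labels tie none of them to an animal, so p-values measure the spread between these libraries. Library totals ranged from 5464815 to 14283008 counts. The 10 long-term HSC markers were detected in every genotype, with summed levels of 1799 to 2767 CPM (counts scaled to the library total and its TMM factor). Lymphoid markers summed to at most 3.42 CPM.

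OXPHOS is the pathway by which mitochondria make ATP. Complexes I to IV pass electrons from NADH and succinate to oxygen and, except for complex II, pump protons, and complex V uses the proton gradient to make ATP. The complexes I, III, IV and V combine subunits encoded in the nucleus with subunits encoded by mitochondrial DNA, whereas complex II and cytochrome c are wholly nuclear. Quiescent HSC are known for a low reliance on OXPHOS and for a high reliance on glycolysis, and leaving quiescence is accompanied by more mitochondrial respiration.

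Mitochondrial genes are packed without introns, and some overlap. There are 4 such overlaps, and those of mt-Atp8 with mt-Atp6 and of mt-Nd4l with mt-Nd4 are shown because a read lying in one belongs to both genes, and the rule used to count such reads is not given in the sources used here. On NCBIM37, the build of the counts, mt-Atp8 and mt-Atp6 share 43 bases (chrM:7907-7989 is shown), and mt-Nd4l and mt-Nd4 share 7 (chrM:10147-10193), with the shared bases in capitals. mt-Nd5 and mt-Nd6 share 14 bases on opposite strands, and mt-Atp6 and mt-Co3 share 1.
mt-Atp8/mt-Atp6: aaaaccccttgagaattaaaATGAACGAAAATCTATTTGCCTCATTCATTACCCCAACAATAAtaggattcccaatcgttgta
mt-Nd4l/mt-Nd4: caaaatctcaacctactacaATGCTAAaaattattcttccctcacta

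A stretch of mitochondrial DNA is also present in the nucleus, on the minus strand of chr1:24618374-24623027. All 50-base windows of mt-Co2, mt-Atp8, mt-Atp6, mt-Co3 and mt-Nd4l, and 99% of those of mt-Nd3, were found there letter for letter. The share was 62.2% for mt-Nd4, 28.7% for mt-Co1 and 0% for mt-Nd1, mt-Nd2, mt-Nd5, mt-Nd6 and mt-Cytb. The start of mt-Co3 (chrM:8607-8667) and its copy (chr1:24620750-24620810) are shown as an example with 0 differing bases, and a window of mt-Co1 (chrM:6363-6423, chr1:24622994-24623054) shows the edge of the copy, with 19 differing bases in capitals.
mt-Co3, mitochondrial: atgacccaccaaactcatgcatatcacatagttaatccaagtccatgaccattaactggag
mt-Co3, chromosome 1: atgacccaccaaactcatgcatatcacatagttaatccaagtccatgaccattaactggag
mt-Co1, mitochondrial: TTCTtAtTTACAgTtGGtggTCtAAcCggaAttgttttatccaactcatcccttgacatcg
mt-Co1, chromosome 1: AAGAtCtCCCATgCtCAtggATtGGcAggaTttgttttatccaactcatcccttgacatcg
Short reads from such a stretch cannot be placed by their letters alone, and how the authors counted reads with several places is not given in the sources used here. The 6 genes copied in full or nearly so are therefore described apart from the other 7.

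Of the members, mt-Co1, the catalytic subunit of complex IV, was the highest per kilobase of exon in each genotype, with means of 14038 CPM per kb in control, 12877 in NA10hd and 10202 in NV. mt-Cytb of complex III came next at 5712 CPM per kb in control. The 6 copied genes were recorded at 14.0 CPM per kb (mt-Nd4l) to 842 (mt-Co2) in control, a range that included mt-Nd5 of complex I at 795, and these levels hold only as counted. The median of the 93 nuclear members was 60.7 CPM per kb in control, and the highest was Cox4i1 at 660.

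In NV HSC, the mitochondrial genes were lower than in control HSC, whereas edgeR called none of the nuclear members different. The 13 mitochondrial genes took 4.54%, 4.12%, 3.59% and 3.98% of all counts in control libraries 1 to 4, and 3.13%, 2.52% and 2.995% in NV libraries 1 to 3. Every NV library was below every control library. Nuclear members took 1.14% to 1.27% in control and 1.17% to 1.28% in NV libraries, and these ranges overlapped. By edgeR's quasi-likelihood test (adjusted p under 0.05, over all genes), 11 of 13 mitochondrial genes were lower and 0 higher, beside 2.57% lower and 2.96% higher of all 13462 tested genes. In 10 of the 13, every NV library lay below every control library, as did 9.39% of all tested genes. The median log2 fold change was -0.77 over the 13, beside -0.01 over all tested genes. DESeq2 called 12 lower (4.46% of all genes) and limma-voom 11 (2.5%). As in any bulk sample, fewer cells of a type and less RNA per cell cannot be told apart, and CPM are relative to all transcripts of the library.

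Of the 7 mitochondrial subunits of complex I, 6 were called lower in NV. mt-Nd5, a proton-pumping subunit (chrM:11742-13565), was at 1711, 1407, 1313 and 1371 CPM in control and 895, 754 and 889 CPM in NV libraries, a log2 fold change of -0.78 ± 0.11 (SE, adjusted p = 0.00212). The NV libraries lay below all controls without overlap. mt-Nd2 (chrM:3914-4951) was at 1449, 1431, 1677 and 1107 CPM in control and 881, 680 and 935 CPM in NV (log2 fold change -0.77 ± 0.14, adjusted p = 0.00893). mt-Nd4 was at 3648, 4005, 3542 and 3230 CPM in control and 2724, 1966 and 2297 CPM in NV (-0.64 ± 0.11, adjusted p = 0.0063). Both are membrane subunits of complex I, and neither showed overlap. mt-Nd1 was at 3467, 3006, 3499 and 2935 CPM in control and 2573, 1987 and 2453 CPM in NV (-0.47 ± 0.10, adjusted p = 0.0203). mt-Nd6, the one member on the other strand (chrM:13552-14070), was at 714, 684, 481 and 563 CPM in control and 429, 336 and 380 CPM in NV (-0.68 ± 0.14, adjusted p = 0.0169). Both were lower in every NV library than in any control. The strand setting of the counting is not given in the sources used here, so reads from the 2 strands of mt-Nd6 cannot be told apart.

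The other complexes with mitochondrial subunits had the same direction. mt-Cytb, the cytochrome b of complex III (chrM:14145-15288), was at 6911, 5787, 7341 and 6098 CPM in control and 4786, 4145 and 5022 CPM in NV (-0.50 ± 0.10, adjusted p = 0.0107), with no overlap. mt-Co1 (chrM:5328-6872) was at 24628, 23885, 16711 and 21529 CPM in control and 17486, 13922 and 15876 CPM in NV (-0.47 ± 0.12, adjusted p = 0.0389). NV library 1 lay above control library 3, so mt-Co1 was the gene of these 7 whose groups overlapped. All 7 genes without a full copy were called lower, with log2 fold changes from -0.78 to -0.47.

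Among the 6 copied genes, 4 were called lower in NV. mt-Co2, which receives electrons from cytochrome c in complex IV, was at 627, 544, 544 and 588 CPM in control and 305, 171 and 326 CPM in NV (-1.11 ± 0.19, adjusted p = 0.00504). mt-Atp6, the proton channel subunit of complex V, was at 539, 374, 498 and 479 CPM in control and 255, 172 and 298 CPM in NV (-0.97 ± 0.18, adjusted p = 0.00842). The NV values of both lay below every control. mt-Atp8 and mt-Nd3 had the largest fitted differences, -1.95 ± 0.42 and -2.19 ± 0.46, at low levels of at most 15.2 CPM in any library. mt-Co3 at 614, 367, 498 and 608 CPM in control and 334, 221 and 400 CPM in NV overlapped and did not pass the test (-0.72 ± 0.21, adjusted p = 0.0694). mt-Nd4l did not pass either, at 0.852 to 6.62 CPM in control and 1.27 to 3.86 CPM in NV.

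The number of mitochondrial genes called lower in NV depended on the libraries in the fit. It was 7 without control library 1, 4 without NV library 2 and 6 without NV library 3. With all 3 groups in one fit it was 0 (median log2 fold change still -0.77). Against control libraries 2 and 3, which have the mix of Xist and Y-linked counts of the NV libraries, 3 were called (mt-Nd2, mt-Nd4, mt-Nd5). The median there was -0.69. Shares of all genes called were not computed for these fits, so the counts cannot be set beside them.

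**Figure D1:**
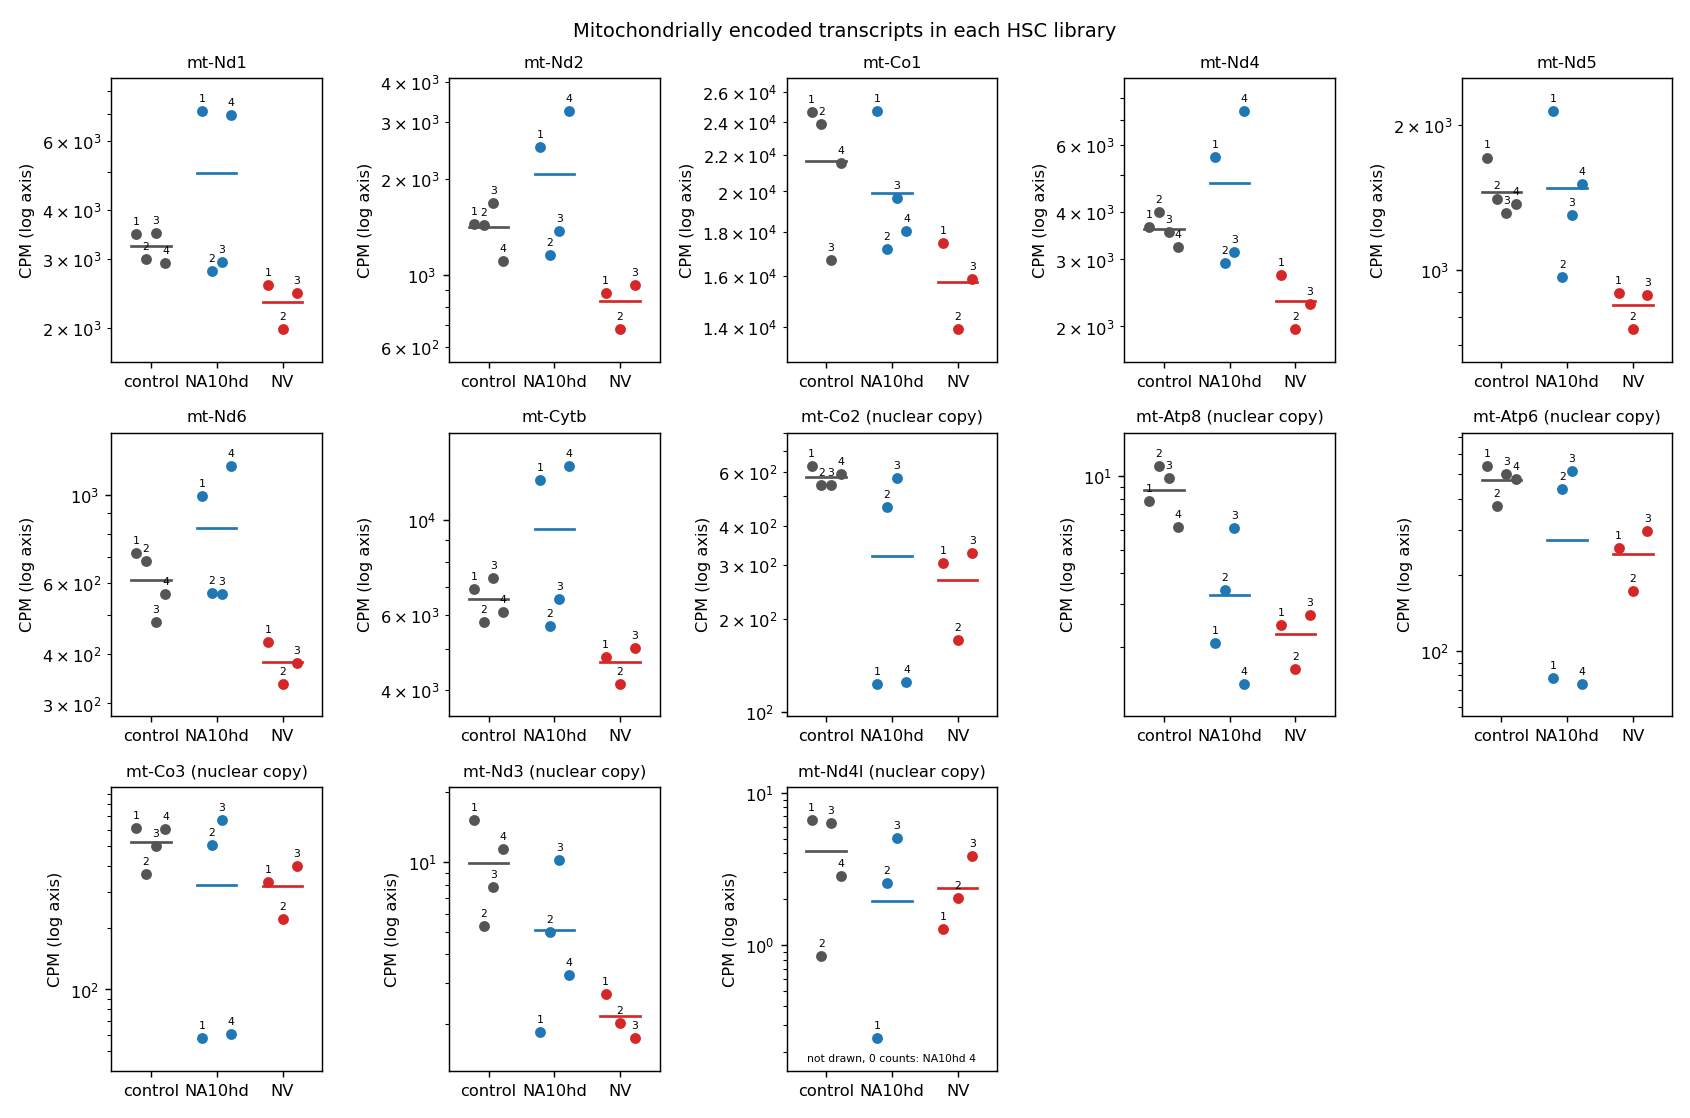
CPM of the 13 mitochondrially encoded genes (log axis, each panel with its own range) in each library, with the replicate number above each point and a line at the group mean; genes marked as having a nuclear copy are the 6 copied on chromosome 1, and the 0 of mt-Nd4l in NA10hd replicate 4 is not drawn. NV points lay below all control points in 10 panels (9.39% of all tested genes), and NA10hd replicates 1 and 4 stood apart from 2 and 3, upward in mt-Nd1 and downward in mt-Co3.

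In NA10hd HSC, the mitochondrial genes did not pass the test against control, and the NA10hd libraries fell apart by gene. NA10hd libraries 1 and 4 were high in several genes without a full copy and low in the copied ones, while libraries 2 and 3 were near the controls. The mitochondrial genes took 5.15%, 3.37%, 3.71% and 4.80% of counts in NA10hd libraries 1 to 4, a range that enclosed that of the controls. edgeR called 0 of 13, beside 0.00766% of all tested genes (1 gene). DESeq2 and limma-voom also called 0 of 13, beside 2.17% and 0.0153% of all genes. At an unadjusted p under 0.05 there were 3 of the 13, mt-Nd1 and mt-Cytb higher and mt-Atp8 lower, beside 1552 of all 13060 tested genes. The median log2 fold change was -0.12 over the 13 genes.

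mt-Cytb was at 12428, 5664, 6550 and 13429 CPM in NA10hd libraries 1 to 4. Libraries 1 and 4 were above all controls, and library 2 was below them. mt-Nd1 was at 7130, 2798, 2943 and 6974 CPM, mt-Nd2 at 2507, 1158, 1373 and 3242 CPM, and mt-Nd4 at 5582, 2938, 3138 and 7365 CPM. mt-Nd6 was at 993, 569, 564 and 1184 CPM. These are subunits of complex I, and in all of them libraries 1 and 4 held the highest values. mt-Nd5 was at 2135, 969, 1300 and 1510 CPM, and mt-Co1 at 24700, 17176, 19681 and 18025 CPM, and in both, library 4 lay within the range of the controls. The copied genes went the other way. mt-Co3 was at 57.9, 505, 670 and 60.9 CPM, mt-Co2 at 124, 460, 570 and 126 CPM, and mt-Atp6 at 78.3, 436, 514 and 74.2 CPM. Libraries 1 and 4 were below every control and NV library in these 3 genes. mt-Nd4l had 0 counts in library 4, which allows up to 0.393 CPM (3 counts, counting error only). Summed over the 6 copied genes, levels were 264, 1412, 1775 and 266 CPM in NA10hd libraries 1 to 4, against 1302 to 1810 in control. Over the other 7 genes they were 55475, 31271, 35551 and 51730 CPM, against 34564 to 42528 in control.

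Other measures moved with these libraries. Gm10925, a gene row lying on the chromosome 1 copy (chr1:24620814-24621627), was at 72.8, 494, 563 and 79.5 CPM in NA10hd libraries 1 to 4, at 444 to 578 CPM in control and at 271, 189 and 343 CPM in NV libraries. The NV values of this row lay below all controls, as did those of mt-Co2 and mt-Atp6. The mitochondrial ribosomal RNAs took 0.129% and 0.143% of counts in libraries 1 and 4, against 0.0449% and 0.0433% in libraries 2 and 3 and 0.0349% to 0.0592% in control. Libraries 1 and 4 also detected fewer genes (14430 and 13859, against 15361 to 15900 in the other 9 libraries). The part of these differences in the gene levels was not tested. The sources used here do not say whether index and read length were the same for all libraries, so the mitochondrial values of libraries 1 and 4 hold only as counted. Without NA10hd libraries 1 and 4, log2 fold changes against control became -0.17 for mt-Nd1, -0.16 for mt-Nd2, -0.25 for mt-Nd4 and -0.11 for mt-Nd6. They were -0.10 for mt-Cytb and 0.17 for mt-Co3, and 0 of 13 were called (0.0285% of all genes). That fit was not planned. It leaves out the libraries that stood apart in these genes, so the changed signs follow in part from that choice.

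**Figure D2:**
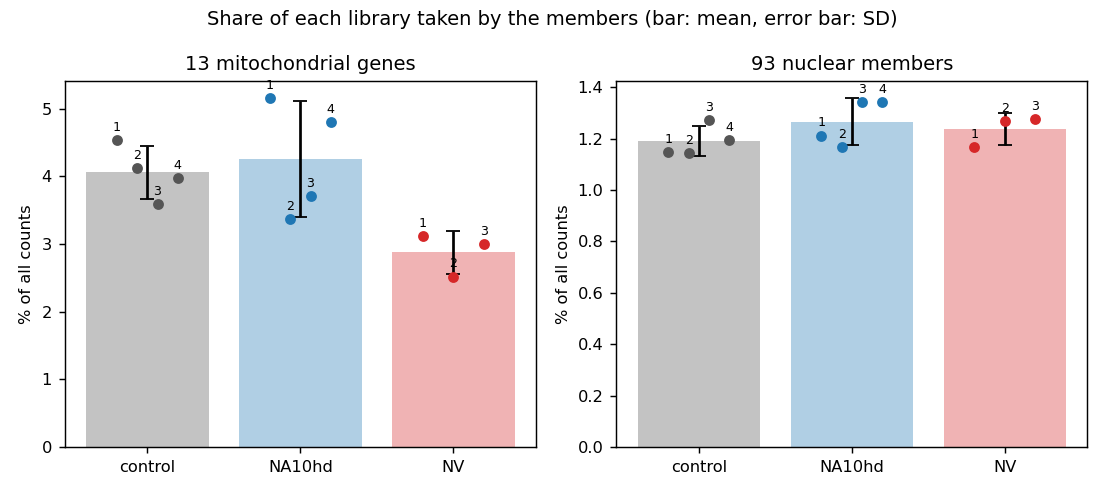
Percent of all counts taken by the 13 mitochondrial genes (left) and by the 93 nuclear members (right) in each library, with bars at the group mean and error bars of 1 SD. The mitochondrial share was 4.06% ± 0.389 (SD, n = 4) in control, 4.26% ± 0.854 (n = 4) in NA10hd and 2.88% ± 0.318 (n = 3) in NV, while the nuclear shares of the 3 groups overlapped.

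Between NA10hd and NV, 2 of the 13 mitochondrial genes passed the test, both higher in NA10hd. mt-Nd2 differed by a log2 fold change of 1.30 ± 0.31 (adjusted p = 0.0381) and mt-Nd6 by 1.11 ± 0.26 (adjusted p = 0.0348), and in both every NA10hd library was above every NV library, which held for 9.63% of all tested genes. Of the 13461 genes tested, 5.11% were called, 2.32% higher and 2.79% lower. The median over the 13 was 0.80. mt-Nd1, mt-Nd4, mt-Nd5 and mt-Cytb had values of 0.80 to 1.07 with adjusted p from 0.0551 to 0.0817, and they too did not overlap. The 6 copied genes had a median of 0.23 and none was called. Without NA10hd libraries 1 and 4, mt-Nd6 passed at 0.57, and mt-Nd2 did not (0.61, adjusted p = 0.0541). The copied gene mt-Atp6 passed at 0.98, beside 3.38% of all genes higher and 4.88% lower. Both libraries stood apart in these same genes and leaving them out was not planned, so these calls are no independent test. Leaving out NA10hd library 1 or any NV library gave 0 calls, and leaving out NA10hd library 2 or 3 gave 6 and 5. Shares of all genes were not computed for these leave-outs. These comparisons use the same NV or NA10hd libraries as those against control.

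For the nuclear members, 85 of 93 IDs passed the filter on low counts in both comparisons with control, and 86 between NA10hd and NV. Those not tested were isoforms or rows with few or no counts. Cox6a2, Cox8b and Cox8c, isoforms known from muscle or testis, had 0 counts in all libraries, which allows up to 0.0266 CPM over the series. Ndufa4l2 had 1 count in all, and Cox7a1, Cox7b2 and Atp5l-ps1 stayed under 2.5 CPM.

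In NV against control, edgeR called 0 of 85 nuclear members, beside 5.53% of all tested genes in either direction. The median log2 fold change was -0.08, and 54 members were below 0 and 31 above. At an unadjusted p under 0.05 there were 10 lower and 5 higher, beside 2626 of all 13462 tested genes (19.5%) in either direction. limma-voom called 0 (5.79% of all genes), and DESeq2 called 4 lower and 2 higher (4.46% and 4.57%). The lowest values were those of Uqcrb, a small subunit of complex III, Ndufa5, an accessory subunit of complex I, and Atp5k, the e subunit in the membrane part of complex V. Uqcrb was at 83.9, 53.7, 101 and 69.9 CPM in control and 45.2, 30.1 and 56.9 CPM in NV (-0.82 ± 0.25, adjusted p = 0.0823). Ndufa5 was at 18.6, 19.3, 29.0 and 26.1 CPM in control and 14.32, 11.2 and 15.2 CPM in NV (-0.79 ± 0.25, adjusted p = 0.0992). The groups overlapped for Uqcrb and not for Ndufa5. The log2 fold change of Atp5k was -0.71 (adjusted p = 0.239). The highest was Cycs, cytochrome c, which carries electrons from complex III to complex IV and triggers apoptosis when released. Cycs was at 38.4, 46.7, 52.3 and 34.3 CPM in control and 60.6, 66.7 and 61.9 CPM in NV (0.55 ± 0.18, adjusted p = 0.102). All NV libraries lay above all controls, without passing the test. Ndufa9, an accessory subunit of complex I, was at 57.0 to 68.2 CPM in control and 84.2 to 88.0 CPM in NV (0.44 ± 0.13, adjusted p = 0.0814). Cox5a, a nuclear subunit of complex IV, was at 36.6 to 53.2 CPM in control and 51.9 to 65.1 CPM in NV, with overlap (0.34 ± 0.18, adjusted p = 0.332).

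In NA10hd against control, 0 of 85 were called by edgeR and by limma-voom, and 1 was called higher by DESeq2 (2.17% of all genes in either direction). At an unadjusted p under 0.05 there were 14 higher and 2 lower, beside 1552 of all 13060 tested genes (11.9%) in either direction. The median was 0.20, with 64 members above 0, and it was 0.05 without NA10hd libraries 1 and 4. The highest were Ndufa3 and Ndufa6 of complex I and Cox6a1 of complex IV. Ndufa6 was at 122, 106, 141 and 136 CPM in control and 170, 138, 237 and 249 CPM in NA10hd (0.66 ± 0.20, adjusted p = 0.275), with overlap at library 2. Ndufa3 was at 27.7 to 53.8 CPM in control and 64.1, 35.5, 34.3 and 97.1 CPM in NA10hd (0.72 ± 0.34), and without libraries 1 and 4 its difference was -0.0032. Cox6a1 was at 108 to 186 CPM in control and 163, 123, 254 and 285 CPM in NA10hd (0.67 ± 0.27). The lowest were Ndufaf4, an assembly factor of complex I (-0.80 ± 0.37), Cycs (-0.58 ± 0.23, adjusted p = 0.356) and Cox4i2 (-0.55 ± 0.94).

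Between NA10hd and NV, 5 of 86 nuclear members were called higher in NA10hd (2.32% of all genes) and 1 was called lower (2.79%). Cycs (ENSMUSG00000063694, chr6:50512562-50516537) was at 30.6, 23.9, 27.0 and 33.2 CPM in NA10hd and 60.6, 66.7 and 61.9 CPM in NV, a log2 fold change of -1.15 ± 0.22 (adjusted p = 0.0135). The groups were far apart, and the controls lay between them. Of the Cycs exon sequence, 40.0% has a near-identical copy elsewhere in the genome, and how reads with several places were counted is not given, so its count is uncertain. In all, 13 of the 93 nuclear members had such copies, 5 of them over most of their sequence (Atp5g2, Atp5l, Cox5b, Atp5h and Ndufs5), and Cox7a2l had them over 22.2%.

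The 5 members higher in NA10hd belonged to complexes I, III and IV or join them. Ndufa6 (ENSMUSG00000022450, chr15:82180569-82184721), at 86.8, 99.3 and 109 CPM in NV, differed by 1.01 ± 0.22 (adjusted p = 0.0276). Ndufa11 (ENSMUSG00000002379, chr17:56857185-56863671), a membrane subunit of complex I, was at 90.9, 58.0, 95.7 and 114 CPM in NA10hd and 36.8, 49.0 and 40.5 CPM in NV (1.08 ± 0.25, adjusted p = 0.0329). Uqcrh (ENSMUSG00000063882, chr4:115739570-115747676), the hinge protein of complex III, was at 464, 296, 337 and 589 CPM in NA10hd and 227, 227 and 195 CPM in NV (0.95 ± 0.23, adjusted p = 0.0372). In each of these 3 genes the libraries of the 2 groups did not overlap. Cox4i1 (ENSMUSG00000031818, chr8:123192190-123198109), the general isoform of complex IV subunit 4, was at 545, 581, 773 and 667 CPM in NA10hd and 368, 388 and 415 CPM in NV (0.71 ± 0.16, adjusted p = 0.0332). Cox7a2l (ENSMUSG00000024248, chr17:83901259-83913673), a factor that joins complexes III and IV into supercomplexes, was at 839, 928, 907 and 740 CPM in NA10hd and 575, 571 and 573 CPM in NV (0.57 ± 0.14, adjusted p = 0.0457). Both were the highest nuclear members per kilobase in control and NA10hd, and in both the NV libraries lay below all NA10hd libraries. Leaving out any one NV library gave 0 calls in either direction, and leaving out NA10hd library 3 gave 1 higher (shares of all genes not computed). Without NA10hd libraries 1 and 4, Ndufa11 (0.87) and Uqcrh (0.55) no longer passed, while Ndufa6, Cox4i1 and Cox7a2l did, and 4 members in all were higher and 3 lower, beside 3.38% and 4.88% of all genes. Of the 3 largest differences each way, those not called were Atp5k at 10.3 to 41.6 CPM in NA10hd and 7.63 to 10.1 in NV (1.34 ± 0.52, adjusted p = 0.174), Cox7a1, which was under 2.5 CPM (1.19 ± 1.54), Ndufa3 (1.11 ± 0.37, adjusted p = 0.113), Ndufaf4 (-0.83 ± 0.39, adjusted p = 0.265) and Uqcrc1. Without NA10hd libraries 1 and 4, Atp5k was at 0.30 and Ndufa3 at 0.41, and Ndufaf4 passed at -1.39.

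**Figure D3:**
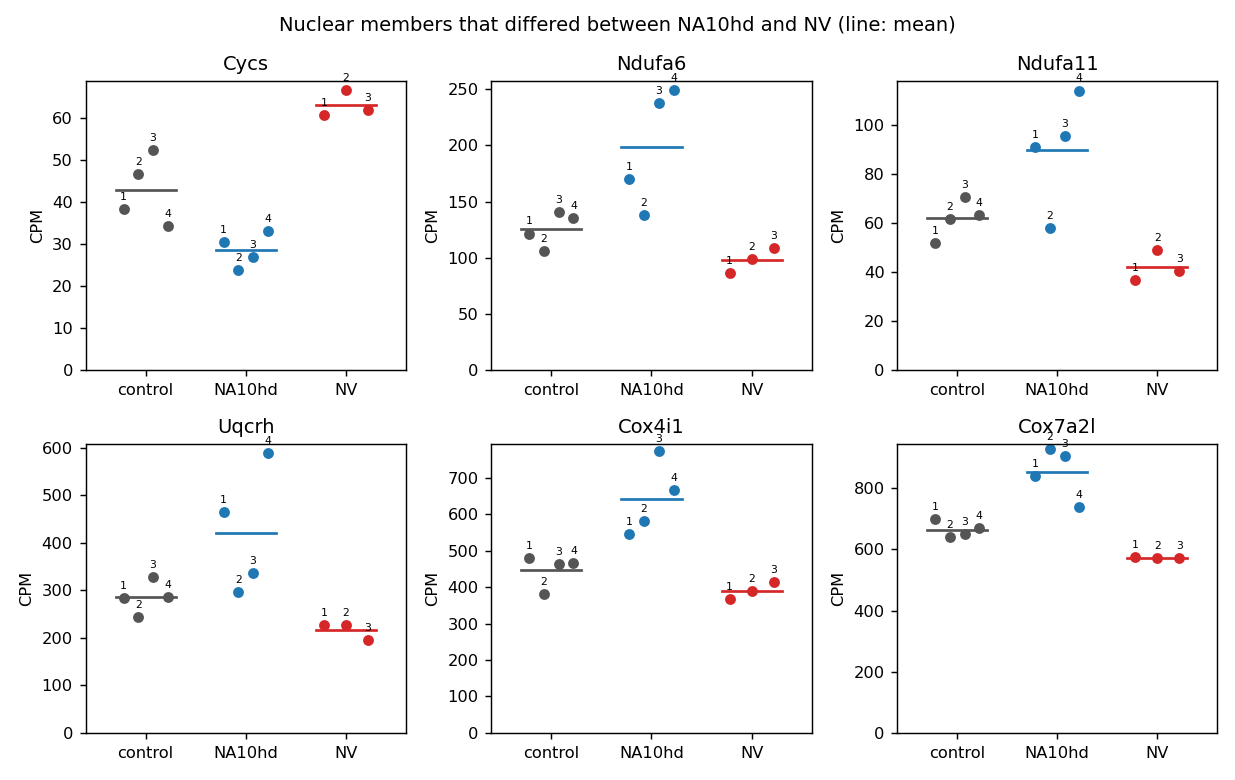
CPM of the 6 nuclear members called different between NA10hd and NV, in each library, with replicate numbers and a line at the group mean. NV libraries lay at 60.6 to 66.7 CPM for Cycs, above all others, and below every NA10hd library in the other 5 panels.

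The bases upstream of 5 of these 6 genes (Cox4i1 had no match in the RefSeq table) are shown because NRF1 and ETS factors are known regulators of OXPHOS genes. The 150 bases before the RefSeq start site are printed 5' to 3' on the gene's strand (GRCm38.p6, a later build than that of the counts), with matches to the NRF1 core GCATGCGC and to the ETS motif CCGGAAG on either strand in capitals. The windows were chr6:50566570-50566719 for Cycs, chr15:82354292-82354441 for Ndufa6, chr17:56717612-56717761 for Ndufa11, chr4:116075071-116075220 for Uqcrh and chr17:83514334-83514483 for Cox7a2l.
Cycs: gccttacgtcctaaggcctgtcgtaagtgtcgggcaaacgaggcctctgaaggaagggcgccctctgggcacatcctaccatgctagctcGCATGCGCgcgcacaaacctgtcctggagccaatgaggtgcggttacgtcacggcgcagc
Ndufa6: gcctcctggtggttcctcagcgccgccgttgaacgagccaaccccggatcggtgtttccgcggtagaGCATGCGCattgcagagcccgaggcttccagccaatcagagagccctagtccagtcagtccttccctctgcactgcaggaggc
Ndufa11: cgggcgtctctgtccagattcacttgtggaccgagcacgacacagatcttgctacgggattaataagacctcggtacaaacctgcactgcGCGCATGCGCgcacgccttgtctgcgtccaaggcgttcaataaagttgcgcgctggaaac
Uqcrh: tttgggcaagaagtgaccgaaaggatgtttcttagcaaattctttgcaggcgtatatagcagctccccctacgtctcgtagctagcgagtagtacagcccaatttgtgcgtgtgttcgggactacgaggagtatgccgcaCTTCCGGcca
Cox7a2l: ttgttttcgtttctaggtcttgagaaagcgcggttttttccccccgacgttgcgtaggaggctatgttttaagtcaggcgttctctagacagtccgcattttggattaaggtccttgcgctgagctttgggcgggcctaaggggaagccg
Of the 5 genes shown, Cycs, Ndufa6 and Ndufa11 held the NRF1 core, the first lower and the others higher in NA10hd than in NV. In Ndufa11 the capitals are 2 overlapping matches, 1 on each strand. Over 250 upstream bases, 75 nuclear members matched the RefSeq table, and 13.3% of them held the NRF1 core, against 3.3% of 17492 genes. A fuller NRF1 motif, GCGCA and GCGC with any base between them, can overlap the core and was held by 18.7% of members and 5.8% of genes. The ETS motif was held by 17.3% and 10.2%, the YY1 motif AAGATGGCG by 2.7% and 0.8%, and the SP1 motif GGGGCGGGG by 14.7% and 15.8%. A match is a description of the letters, and the core was chosen after the sequences had been read.

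By role, the medians of the nuclear members differed in sign. Over all tested nuclear members they were -0.08 for NV against control, 0.20 for NA10hd against control and 0.25 for NA10hd against NV, the last of which was 0.0436 without NA10hd libraries 1 and 4. The 29 tested accessory subunits of complex I had a median difference on the log2 scale of -0.11 for NV against control, 0.32 in NA10hd against control and 0.50 in NA10hd against NV. In the last comparison 12 of the 29 had all NA10hd libraries above all NV libraries, beside 17 of all 86 nuclear members and 9.63% of all tested genes, and 8 of the 86 had all NA10hd libraries below all NV libraries, beside 11.3% of all tested genes. The 7 core subunits of complex I, which hold the redox centres, had medians of 0.04, 0.10 and 0.06. The 5 small subunits of complex III had -0.40, 0.25 and 0.70, whereas the 3 large ones had 0.23, -0.23 and -0.43. Uqcrc1, one of the large core proteins, was at 224 to 371 CPM in NA10hd and 379 to 493 CPM in NV (-0.57 ± 0.21, adjusted p = 0.154). In complex V, the 5 subunits of the catalytic F1 part had medians of 0.16, -0.06 and -0.24, and the 6 membrane subunits had -0.14, 0.39 and 0.47. The roles were assigned with the data known, and apart from the 6 genes above none of these members passed the test.

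None of the 4 genes of complex II, which links the citric acid cycle to the electron chain, was called in the 3 comparisons. Sdha, its flavoprotein, was at 319 to 425 CPM in NV, 359 to 442 in control and 311 to 511 in NA10hd libraries. Sdhb, its iron-sulfur subunit, was at 133 to 167, 129 to 160 and 121 to 162 CPM in the same order. The membrane anchor Sdhc was at 109 to 129, 90.8 to 115 and 101 to 137 CPM. For these 3 genes the ranges of the groups overlapped. Sdhd, the other anchor, was at 180 to 195 CPM in NV, 132 to 184 in control and 129 to 174 in NA10hd, so that the NV libraries lay above all NA10hd libraries (NA10hd against NV -0.33 ± 0.16, adjusted p = 0.277).

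In the Cox4, Cox6b and Cox8 families, and for Cox7a2 against Cox7a1, the general isoform was the more abundant. Cox4i1 was at 448 ± 44.3 CPM in control (SD, n = 4) and Cox4i2, known from lung, at 3.08 ± 0.512. Cox6b1 was at 103 ± 23.2 CPM and its testis isoform Cox6b2 at 11.7 ± 1.34. Cox7a2 was at 84.7 ± 10.96 CPM and Cox7a1, known from muscle, at 0.433 ± 0.385. The related Cox7a2l was higher than both, at 664 ± 26.4 CPM. Cox8a was at 295 ± 34.1 CPM with its isoforms at 0. Ndufa4, a subunit of complex IV, was at 160 ± 31.1 CPM in control, 178 ± 71.1 in NA10hd and 180 ± 6.19 in NV. The genes Atp5g1, Atp5g2 and Atp5g3 encode the same c-ring protein of complex V, and in control were at 21.5, 168 and 151 CPM per kb of exon. Atp5g2 was at 138, 109, 187 and 205 CPM in NA10hd and 86.4 to 131 CPM in control (0.56 ± 0.21, adjusted p = 0.345). Of these families, only Cox4i1 and Cox7a2l were called in the 3 comparisons, both between NA10hd and NV.

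**Figure D4:**
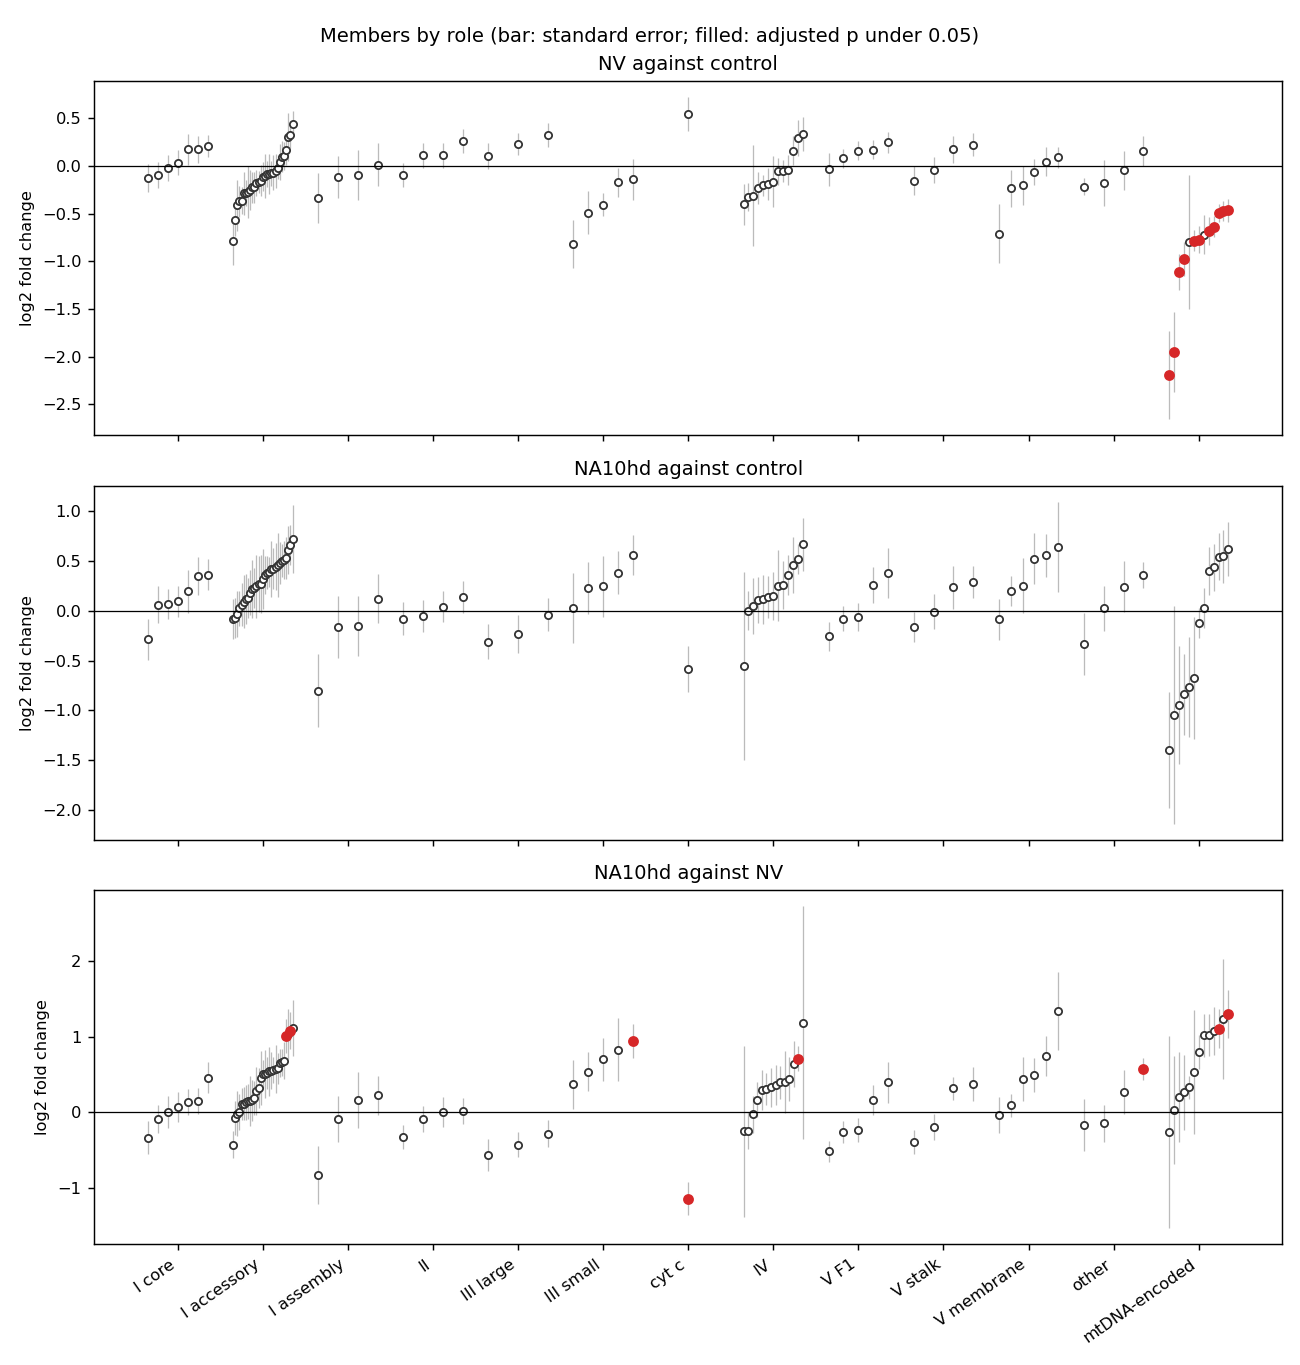
Log2 fold change of each tested member (standard error as bars) by role, for NV against control, NA10hd against control and NA10hd against NV; filled points had adjusted p under 0.05. Filled points were 11 mitochondrial genes in the first panel, none in the second, and 6 nuclear and 2 mitochondrial genes in the third.

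The difference between genotypes went with the coding length of the nuclear members. Over 85 tested members, the value for NV against control rose with the logarithm of the coding length (Pearson's r = 0.416 across genes), and that of NA10hd against control fell with it (r = -0.425). Members share their libraries and are not independent replicates. Over the other protein-coding genes r was 0.036 and -0.08. The 44 members with a coding length of up to 450 bases had a median of -0.15 in NV and 0.27 in NA10hd, against 0.04 in both for the 41 longer ones, and other genes of that length had medians of -0.14 and 0.16. The relation also differed among control libraries. Set against the control mean, it was 0.549 in control library 2 and -0.48 in control library 3, and among NA10hd libraries it was -0.377, 0.256, -0.214 and -0.385 in libraries 1 to 4, so library 2 went the other way. In the 3 NV libraries it was 0.322 to 0.397. Its part in the differences between genotypes was not tested.

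**Figure D5:**
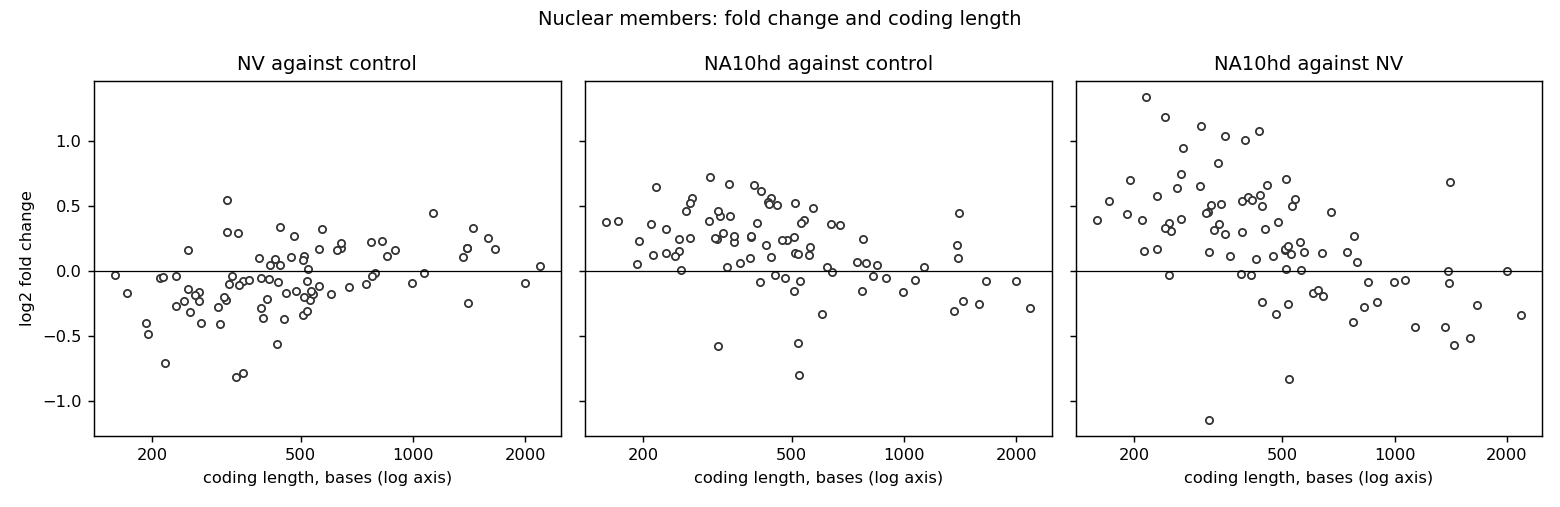
Log2 fold change of each tested nuclear member against its coding length (log axis) in the 3 comparisons. The shortest members lay mostly below 0 in NV against control and above 0 in both comparisons of NA10hd.

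Other genes of mitochondrial function were counted from lists written for this purpose. In NV against control, 0 of 22 citric acid cycle genes were called (3 at an unadjusted p under 0.05, all higher), 0 of 23 genes of mitochondrial DNA maintenance and expression (4 higher and 1 lower at that p), 0 of 14 regulators of mitochondrial biogenesis (3 at that p) and 0 of 19 import genes (3 at that p), beside 19.5% of all tested genes at that p. Summed levels of the citric acid cycle genes were 3364 to 3394 CPM in NV and 2872 to 3299 CPM in control libraries, and 2703 to 3115 CPM in NA10hd. Every NV library was also above every control in the summed levels of mitochondrial DNA expression (949 to 953 against 855 to 935 CPM). The same held for assembly factors and other subunits (2267 to 2389 against 1991 to 2260 CPM) and for antioxidant defence and uncoupling (6187 to 6294 against 5063 to 6113 CPM). The sums of the other 3 lists overlapped. Sums are ruled by the abundant genes of a list. Over the genes, median log2 fold changes were 0.13 for the citric acid cycle and 0.05 for mitochondrial DNA expression. They were 0.05 for assembly factors and other subunits and 0.09 for antioxidant defence and uncoupling, beside -0.01 over all tested genes. Of 47 assembly factors and other subunits, Coq9, needed for coenzyme Q synthesis, was higher (0.59 ± 0.15, adjusted p = 0.034). Of 21 genes of antioxidant defence and uncoupling, the mitochondrial carrier Ucp2 was higher (0.42 ± 0.10, adjusted p = 0.0309). Of 76 mitochondrial ribosomal proteins, Mrpl18 was higher (0.56 ± 0.14) and Mrpl23 lower (-0.63 ± 0.16). As shares of their lists, these counts were below the 5.53% of all genes. In NA10hd against control none of these lists held a called gene. At an unadjusted p under 0.05 there were 3 of 14 biogenesis regulators (2 lower), 4 of 22 citric acid cycle genes (3 lower) and 3 of 21 of antioxidant defence and uncoupling (1 lower). There were also 10 of 76 ribosomal proteins (4 lower), 2 of 23 of mitochondrial DNA expression (1 lower), 1 of 19 import genes (lower) and 0 of 47 assembly factors and other subunits. The share of all tested genes at that p was 11.9%. Between NA10hd and NV, 1 of 22 citric acid cycle genes was lower in NA10hd (Idh3a, a subunit of isocitrate dehydrogenase, -1.07 ± 0.26), as was 1 of 21 genes of antioxidant defence and uncoupling (the ADP/ATP carrier Slc25a5, -0.94 ± 0.14), and 1 of 76 ribosomal proteins was higher (Mrpl23, 1.17 ± 0.17). The other 4 lists held 0 called genes, and 5.11% of all tested genes were called. At an unadjusted p under 0.05 there were 8 of 22 citric acid cycle genes (7 lower), 5 of 14 biogenesis regulators (3 lower) and 6 of 21 of antioxidant defence and uncoupling (4 lower). The remaining lists held 7 of 47 assembly factors and other subunits, 3 of 19 import genes, 3 of 23 of mitochondrial DNA expression and 8 of 76 ribosomal proteins. The share of all tested genes at that p was 19.5%.

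Markers of other states moved with genotype beside these results. The 8 cycling genes, such as Mki67 and Top2a, summed to 1634 to 1887 CPM in NV, 659 to 993 in control and 427 to 496 in NA10hd, and 7 of 8 were called higher in NV against control, beside 2.96% higher and 2.57% lower of all tested genes. Erythroid markers summed to 42.6 to 82.2 CPM in NV and 18.4 to 24.9 in control, with both tested markers called higher, and 3 of 6 megakaryocyte markers were called higher and 1 lower. Of the 10 long-term HSC markers, 3 were lower and 1 higher in NV. Endothelial markers summed to 49.1 to 66.6 CPM in NV and 109 to 155 in control. Stromal markers stayed at or under 25.8 CPM in every library, myeloid markers were at 372 to 554 CPM with overlapping groups, and multipotent progenitor markers at 107 to 172 CPM. The part of these differences in the OXPHOS results was not tested.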

How the data were processed

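HSC libraries were aligned to NCBIM37 with HISAT2 and counted with featureCounts by the authors, who deposited raw counts per gene without normalization (versions, annotation release, strand and multi-mapping rules are not given in the sources used here). Gene symbols and positions were taken from GENCODE for NCBIM37 (37205 IDs found, 786 not). Libraries were grouped by labelled genotype. Each comparison was fitted on its own libraries with edgeR 4.0.16 (R 4.3.3), TMM factors, the default low-count filter and the quasi-likelihood test, and called at a Benjamini-Hochberg adjusted p under 0.05 over all tested genes. Alternatives were DESeq2 1.42.0, limma-voom 3.58.1, other scalings and filters, a fold change above 1.5, one fit of all groups, a replicate block and each library left out. Copies were found with blastn 2.17.0 (99% identity, 100 bases).

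The members, lists, roles and alternatives were chosen with earlier results of these data known. Genes were named by rule: the mitochondrial genes, complex II, Cycs, isoform families, called members, the 3 largest differences each way, and called genes of other lists. Counts carry no molecular identifiers, so limits cover counting error only.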

Additional observations from a re-analysis of the deposited data

Results flagged for a closer look

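Dixon's criterion for 4 samples, which flags about 1 in 20 groups by chance, was applied to 64 groups and met in 3, each time by 1 control library, which is about the number that chance gives. Ndufa3 was at 53.8 CPM in control library 3 and at 27.7 to 29.5 CPM in the other 3 controls. Cox6a1 was at 186 CPM in control library 3 and at 108 to 115 CPM in the others. Cox4i1 was at 382 CPM in control library 2 and at 463 to 479 CPM in the others.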

How the results depend on the processing

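Counts of calls that moved by over 1.5 times are given first, for nuclear and mitochondrial (mt) members. No cause was tested. Besides the main fit, shares of all genes were computed only for DESeq2, limma-voom, the fold change rule and the fits without NA10hd 1 and 4. NV against control: with DESeq2, nuclear higher was 2 (4.57% of all genes) and nuclear lower 4 (4.46%). Nuclear lower was 1 with 10 counts required in every library and 1 with the replicate block. With all 3 groups in one fit, mt lower was 0. It was 3 against controls 2 and 3 alone, matched to NV in Xist and Y-linked counts. Leaving out 1 library gave mt lower 4 to 11, nuclear higher 0 to 1 (1 without control 3) and lower 0 to 2 (2 without control 2). NA10hd against control: nuclear higher 1 with DESeq2 (1.2% of all genes higher). NA10hd against NV: nuclear higher was 10 with DESeq2, 3 with library totals, 9 with all groups and 1 with the block. Of all genes, DESeq2 called 6.22% higher and 4.91% lower, against 2.32% and 2.79% in the main fit. Nuclear lower was 2 with DESeq2, limma-voom (4.09% of all genes), library totals, 10 counts and all groups. It was 3 without NA10hd 1 and 4 (4.88%). The mt higher count was 6 with DESeq2, no filter, 10 counts and all groups. Leaving out 1 library gave nuclear higher 0 to 6, lower 0 to 2 (2 without NA10hd 1) and mt higher 0 to 6. The remaining settings gave 8 to 12 mt lower in NV against control, and 4 to 7 nuclear and 2 to 3 mt higher in NA10hd against NV. Without NA10hd 1 and 4 the medians there were 0.0436 (nuclear) and 0.61 (mt).

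Signs turned in NA10hd against control without NA10hd 1 and 4: Ndufa3 -0.0032, mt-Nd1 -0.17, mt-Nd2 -0.16, mt-Atp6 0.0059, mt-Co3 0.17, mt-Nd4 -0.25, mt-Nd5 -0.36, mt-Nd6 -0.11 and mt-Cytb -0.10. mt-Nd5 also turned with limma-voom (-0.0245), library totals (-0.0527), the block (-0.0187) and libraries matched in those counts (-0.0724), and ranged from -0.20 to 0.18 with 1 library left out. In NA10hd against NV, mt-Atp6 turned with limma-voom (-0.19), mt-Co3 with limma-voom (-0.59), library totals (-0.0144) and the block (-0.0633), and mt-Nd4l without NA10hd 1 and 4 (0.67). With 1 library left out there, mt-Co2 ranged from -0.18 to 0.53, mt-Atp6 from -0.30 to 0.51, mt-Co3 from -0.61 to 0.38 and mt-Nd4l from -1.30 to 0.25.

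Same-numbered libraries did not deviate together (r between -0.07 and 0.04, against -0.06 to 0.08 for different numbers). The deviations were taken from means of the same few libraries, so such r cannot settle whether the numbers pair the samples.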
